A study of Mus musculus with 25 samples.

Results

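Trophic factors are secreted proteins that keep neurons alive and steer their growth, and 42 of the 9931 measured genes with a symbol carry the names of such factors, of their receptors or of proteins that bind them. The 42 were taken by symbol alone, from the neurotrophin, GDNF, fibroblast growth factor (FGF), insulin-like growth factor (IGF) and insulin, EGF and neuregulin, VEGF, PDGF, HGF and pleiotrophin and midkine names, a rule that uses no measured value, though it was set with earlier results of these data known. The same name rule matched 84 protein-coding symbols of the GENCODE mouse annotation, and 42 of these, Bdnf, Gdnf and Ret among them, were not analysed here.

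The mice were C57BL/6 animals with floxed Rest alleles and a TdTomato reporter that Cre switches on, and the study asked how loss of the repressor REST in cortical neurons changes their response to spinal cord injury (SCI). Sensorimotor cortex received AAV-Syn-GFP (labelled WT, Rest intact) or AAV-Syn-Cre (labelled REST cKO), both driven by the human synapsin promoter, which is active in neurons. After a sham operation or a complete crush of the thoracic cord, cells with GFP (WT) or TdTomato (REST cKO) were sorted, and their RNA was sequenced from its 3′ ends. There were 4 WT sham libraries, 3 WT libraries each at days 1, 3 and 7 after SCI, 3 REST cKO sham libraries, and 2, 4 and 3 REST cKO libraries at days 1, 3 and 7, 25 in all. Every group carried the floxed alleles, the reporter and a virus, and the methods of the paper put the age in its spinal cord work at 4 to 6 weeks. Levels are deposited log2 normalized counts, on which a difference of 1 is 2-fold and which ran from -4.82 to 5.16 in the table. The level of a gene is compared between libraries, and no level of a gene is ranked against that of another. The paper gives an average read depth for these libraries, but the table gives no totals for single libraries, so no counting interval can be given.

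As background, most trophic ligands bind receptor tyrosine kinases at the cell surface, which then signal through the MAP kinase and PI3 kinase cascades to survival, growth and synaptic change. Neurotrophins act through the Trk receptors, IGFs through the IGF and insulin receptors under the control of secreted binding proteins, neuregulins through ErbB receptors, and HGF through Met. In cortex neurons, glia and vessel cells divide the making of ligands and receptors among them, and neurotrophin and IGF signalling are well known for supporting corticospinal neurons.

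Rest itself was read in every library. It stood at -0.55, -0.26, -0.39 and -1.55 in WT sham, -1.35, 0.71 and 0.27 at day 1, 1.64, 2.88 and 0.56 at day 3, and 0.26, 2.30 and 2.74 at day 7. In the REST cKO libraries it stood at -2.65, -0.79 and -0.52 in sham, -0.43 and -0.40 at day 1, -0.04, -0.31, -0.24 and -1.61 at day 3, and -1.21, -0.33 and -0.97 at day 7. Every WT library of days 3 and 7 was thus above every REST cKO library, whereas the sham groups overlapped. The reads come from 3′ ends, and whether they cover the exons that Cre removes is not given.

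Some libraries stood apart. WT day 3 replicate 5 had 29.5% of all genes and 18 of the 42 trophic genes under -2, and WT day 7 replicate 7 had 17% and 11, whereas the other libraries had between 1 and 8 trophic genes that low. By sequencing batch as labelled, the share of genes under -2 ran from 5.35% to 29.5% in the 10 libraries of batch 1, from 3.85% to 12.2% in the 10 of batch 2 and from 2.77% to 6.44% in the 5 of batch 3. Batch 3 held no WT sham library and no WT library of days 1 and 7. Xist, a transcript of the inactive X chromosome, ran from 0.26 to 2.61 in the 12 libraries labelled female and from -1.11 to 1.74 in the 13 labelled male, and WT day 7 replicates 4 (0.62) and 12 (0.26) were labelled female with Xist in the male range, a range whose top is 1 library, REST cKO day 1 replicate 25 (1.74). The other libraries labelled male reached 1.07 at most, so REST cKO day 3 replicates 9 (1.66) and 27 (1.73), labelled female, lay in that range through replicate 25 alone. All 3 WT day 7 libraries were labelled female and all REST cKO sham and day 7 libraries male, so that at day 7 labelled sex and genotype cannot be told apart.

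Markers of neurons were present beside those of other cells. All 7 neuron markers were measured, Syt1 among them (mean 2.78), with a list level of -0.03 to 2.48 per library. Of the excitatory markers 5 of 5 were measured (Slc17a7 mean 1.95, list level -0.49 to 1.89), 1 of 4 layer 5 markers was measured, Bcl11b (mean 0.832), and so were 5 of 7 inhibitory markers (Gad2 mean 0.188, list level -1.82 to 1.21). The 9 microglia markers used here (C1qc mean 3.44) had a list level between 2.47 and 3.29 in every library. The astrocyte list (6 of 9 measured, Slc1a3 mean 2.71; Aqp4, Gfap and Aldh1l1 were not analysed here) ran from 0.56 to 2.58. Endothelial markers (8 of 8, Flt1 mean 3.07) ran from 0.99 to 2.87, and mural and fibroblast markers (9 of 10, Rgs5 mean 2.32) from 0.04 to 2.42. For oligodendrocytes 8 of 8 markers were measured (Mbp mean 1.76, list level -1.0 to 2.74), and for their precursors 4 of 6 (Cspg4 mean 1.55, list level -1.06 to 1.75). Between the genotypes, 7 of 40 pairs of a list and a time had libraries that did not overlap. In sham the neuron, astrocyte and endothelial lists were higher in REST cKO and the microglia list lower (2.62 to 2.88 against 2.90 to 3.18 in WT). The mural and fibroblast list was higher in REST cKO at days 1 and 3 and the excitatory neuron list at day 7 (0.80 to 1.56 against -0.49 to 0.38). Between injured and sham libraries of a genotype, 9 of 50 pairs did not overlap. In WT the endothelial list was higher than sham at days 1, 3 and 7 (from 1.83, 1.96 and 2.03 up, against at most 1.69), the astrocyte list at day 1 and the excitatory neuron list at day 3. In REST cKO the neuron list was lower than sham at days 3 and 7, and at day 3 the inhibitory neuron list was lower and the microglia list higher. In bulk RNA from sorted cells, fewer cells of a type and less RNA per cell cannot be told apart.

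Some trophic genes kept an almost constant level across the 25 libraries, and others swung widely. Ntf5, the ligand neurotrophin-4 of the TrkB receptor, stayed between 0.95 and 1.62, the narrowest range of the 42. The ligand Fgf10 (SD 0.28) stayed between 1.34 and 2.71, and Igfbp7, a secreted IGF-binding protein of vessel walls, between 2.15 and 3.39 (SD 0.35). At the other end, the neuregulin receptor Erbb4 (SD 1.71), the sodium channel regulator Fgf12 (SD 1.70) and the vessel growth factor Vegfa (SD 1.69) each spanned over 5 log2 units. Nrg1, the neuregulin that ErbB receptors read, was under -2 in 14 of 25 libraries. In all, 26 of the 42 (61.9%) had at least 1 library under -2, against 54.6% of all genes, and their median SD was 1.22 against 1.17. The highest of the 8 group means fell in a REST cKO group for 30 of the 42 (71.4%), against 60.9% of all genes. The lowest fell in a WT group for 31 (73.8%, against 60.5%), with 11 in WT day 7 (26.2%, against 24.4%) and 10 in WT day 3 (23.8%, against 16.8%), the groups that hold the libraries with the most low values.

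Among the 16 ligands, Vegfb, which signals through VEGF receptor 1, had the lowest p of all 42 genes. It stood at 2.42, 2.11, 1.55 and 0.81 in WT sham, 1.30, 0.60 and 0.79 at day 1, -2.97, -1.24 and 0.92 at day 3, and 2.17, 1.29 and 2.25 at day 7. In REST cKO libraries its values were 0.56, 2.17 and 2.31 in sham, -1.24 and 1.02 at day 1, 2.22, 1.57, 1.44 and 1.67 at day 3, and 1.47, 2.18 and -0.65 at day 7. WT day 3 was the low group: replicates 5 and 16 lay below every WT sham library and replicate 22 just above the lowest of them, and all 3 lay below the 4 REST cKO day 3 libraries. Group means were 1.72 (SD 0.71, n = 4) in WT sham, -1.10 (SD 1.95, n = 3) in WT day 3 and 1.72 (SD 0.34, n = 4) in REST cKO day 3. Against WT sham the fitted log2 fold change at day 3 was -3.71 (SE 0.84; limma adjusted p = 0.330), and REST cKO less WT at day 3 was 3.55 (SE 0.80; limma adjusted p = 0.620). The fit, made by limma over all 9931 genes with p-values adjusted by Benjamini-Hochberg, called a gene at an adjusted p under 0.1, so neither passed. Within batch 1 the WT difference was -5.24 and within batch 2 -2.42, and the genotype difference at day 3 was 5.19, 2.74 and 0.76 within batches 1, 2 and 3. Vegfb passed only without WT day 3 replicate 22. The WT difference was then -4.55 (limma adjusted p = 0.0435) and the genotype difference 4.41 (limma adjusted p = 0.0490). That fit keeps replicate 5, which had 29.5% of all genes under -2 and the lowest Vegfb value. Without replicate 5 the differences were -2.77 and 2.56, and neither passed. The difference of the day 3 responses between genotypes was 4.59 (SE 1.31; limma adjusted p = 0.883), or 2.87 with no components in the model. Vegfb lies at chr19:6982473-6987651 (minus strand, GRCm38).

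Vegfa, the chief growth factor of blood vessels and also active on neurons, showed no such order. Its values were 1.15, 0.64, -0.33 and 1.49 in WT sham, -2.23, 1.03 and 2.16 at day 1, 0.81, -2.74 and -1.64 at day 3, and 1.34, -2.96 and 0.97 at day 7. In REST cKO libraries they were -0.53, 1.04 and 1.63 in sham, 0.31 and -1.30 at day 1, 1.53, -2.98, -0.09 and -0.68 at day 3, and -2.72, -2.64 and 0.80 at day 7. High and low libraries occurred side by side in most groups, and the groups overlapped. Averaged over sham and the 3 days, each with equal weight, Vegfa in REST cKO less WT was -0.49, and its size and sign were not steady. It was -0.14 with a term for sex, -0.74 after quantile normalization and 0.29 without WT day 7 replicates 4 and 12, and leaving out 1 library gave from -0.89 (REST cKO day 7 replicate 26) to -0.19 (WT day 3 replicate 5). Vegfd, the lymphatic VEGF, had its highest library, 2.37, in REST cKO day 7.

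The other ligands are summarised by their ranges. Igf1, a survival factor for neurons that microglia also make after injury, ran from -0.56 to 2.11, and its averaged genotype difference was -0.00 (SE 0.41). Pdgfa, which drives oligodendrocyte precursors to divide, ran from 0.11 to 2.58, and Pdgfb, the ligand that holds pericytes on vessels, from 0.07 to 3.01. Ptn, a heparin-binding growth factor, ran from 0.32 to 2.96. Its relative Mdk ran from -3.63 to 2.40, with all 3 WT day 3 libraries (-2.03, -2.58 and -1.59) below the 4 of REST cKO day 3 (-0.47, -0.16, -0.15 and 0.03). Egf, a ligand of the receptor Egfr, was low in all 3 WT day 7 libraries (-3.56, -3.21 and -2.13), yet WT sham reached from -3.00 to 1.61 and overlapped them. Against WT sham the fitted Egf difference at day 7 was -3.17 (limma adjusted p = 0.540).

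**Figure D1:**
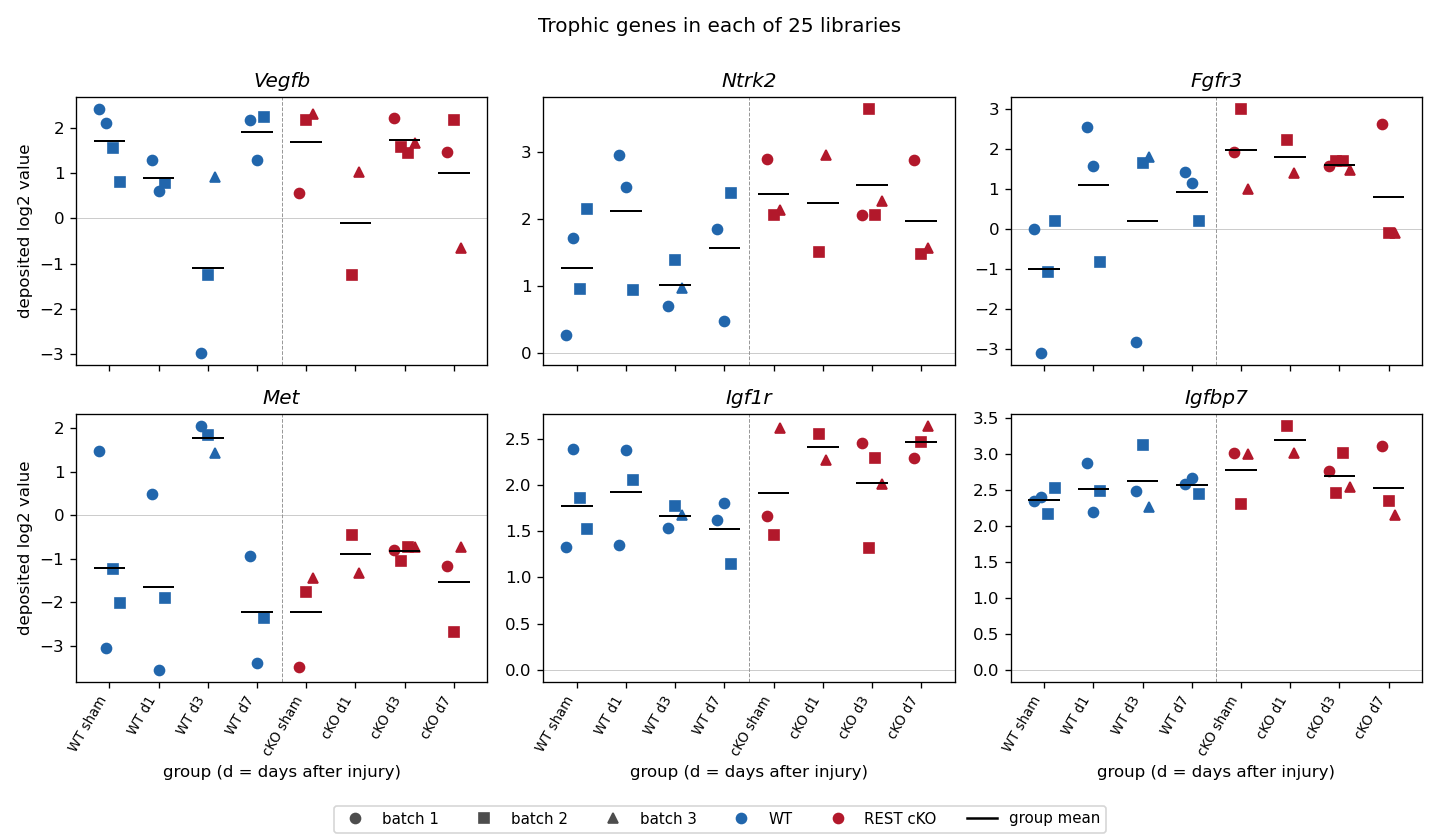
Deposited log2 value (vertical axis) of 6 trophic genes in each of 25 libraries, by group (horizontal axis), with marker shape for batch and a bar for each group mean. Vegfb is lowest in WT day 3 (mean -1.10), Met highest there (mean 1.77), and Fgfr3 lowest in WT sham (mean -1.0).

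The 15 receptors include Ntrk2, Fgfr3 and Igf1r, whose levels were higher in REST cKO at some or most times. Ntrk2, the TrkB receptor of BDNF and neurotrophin-4, stood at 0.27, 1.71, 0.95 and 2.14 in WT sham, 2.95, 2.48 and 0.93 at day 1, 0.70, 1.38 and 0.96 at day 3, and 1.85, 0.47 and 2.38 at day 7. In REST cKO it stood at 2.90, 2.06 and 2.13 in sham, 1.51 and 2.95 at day 1, 2.05, 3.64, 2.05 and 2.26 at day 3, and 2.88, 1.48 and 1.56 at day 7. At day 3 every REST cKO library lay above every WT library, whereas at the other times the genotypes overlapped. Means at day 3 were 1.01 (SD 0.34, n = 3) in WT and 2.50 (SD 0.77, n = 4) in REST cKO, and the fitted difference was 1.53 (SE 0.63; limma adjusted p = 0.756), with 1.35, 1.47 and 1.30 within batches 1, 2 and 3. Averaged over the 4 times it was 0.76 (SE 0.32; limma adjusted p = 0.548). Within batches the average covers fewer times: sham and days 3 and 7 in batch 1, all 4 in batch 2 and day 3 alone in batch 3. For Ntrk2 it was 1.66 in batch 1 and 0.42 in batch 2. Ntrk2 lies at chr13:58806569-59133970 (plus strand), a span that also holds the annotated transcript C630044B11Rik on the same strand.

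Ntrk3, the TrkC receptor of neurotrophin-3, was far steadier. It read 2.16, 0.67, 1.33 and 1.38 in WT sham, 1.64, 1.77 and 1.02 at day 1, 0.50, 2.04 and 0.87 at day 3, and 1.02, 0.93 and 1.46 at day 7. In REST cKO it read 1.00, 1.84 and 2.16 in sham, 1.54 and 1.25 at day 1, 1.77, 0.91, 1.90 and 1.17 at day 3, and 1.31, 0.86 and 1.73 at day 7. All 8 groups overlapped. The averaged genotype difference of Ntrk3 was 0.16, but -0.02 with a term for sex and from 0.06 (without WT day 3 replicate 5) to 0.38 (without REST cKO sham replicate 6) with 1 library left out. Gfra2, the co-receptor of neurturin and the sole GDNF-family gene measured, ran from -3.23 to 2.04.

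Fgfr3, an FGF receptor that astrocytes express strongly, had the largest averaged genotype difference of the 42. Its values were 0.00, -3.10, -1.07 and 0.18 in WT sham, 2.53, 1.57 and -0.83 at day 1, -2.84, 1.64 and 1.79 at day 3, and 1.41, 1.15 and 0.18 at day 7. REST cKO libraries read 1.91, 2.99 and 0.99 in sham, 2.21 and 1.39 at day 1, 1.56, 1.68, 1.70 and 1.46 at day 3, and 2.62, -0.11 and -0.11 at day 7. The sham groups did not overlap, with WT low and REST cKO high, while WT and REST cKO overlapped on each day after injury. Mean level in sham was -1.0 (SD 1.51, n = 4) in WT and 1.96 (SD 1.00, n = 3) in REST cKO, with a fitted difference of 3.82 (SE 1.17; limma adjusted p = 0.489) and 3.46 and 3.44 within batches 1 and 2. Averaged over the 4 times the Fgfr3 difference was 1.48 (SE 0.56; limma adjusted p = 0.517), or 0.88 with a term for sex, and it was 3.07 in batch 1 (without day 1) and 1.56 in batch 2, with -0.33 at day 3 in batch 3. The interaction at day 7, the injury response of REST cKO less that of WT, was -3.99 for Fgfr3 (SE 1.63; limma adjusted p = 0.692).

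Astrocyte markers, like Fgfr3, were higher in REST cKO sham than in WT sham. Their list level was 0.84 to 1.07 in the 4 WT sham libraries and 1.80 to 2.42 in the 3 of REST cKO sham. In WT it was 1.53 to 2.58 at day 1, 0.86 to 1.52 at day 3 and 0.56 to 1.87 at day 7, and in REST cKO 1.86 to 2.14, 1.27 to 2.45 and 1.66 to 1.89. REST cKO day 3 replicate 15, the library with Ntrk2 at 3.64, had the highest astrocyte level of its group, 2.45, against 1.43, 1.33 and 1.27 in the other libraries. WT day 7 replicate 7 had the lowest astrocyte level of all, 0.56, and Fgfr3 at 1.15, and in REST cKO day 3 Fgfr3 lay between 1.46 and 1.70. The neuron list lay at -0.03 to 1.71 in WT sham and 1.87 to 2.48 in REST cKO sham. In sham 4 of 6 astrocyte genes and 3 of 7 neuron genes had an unadjusted p under 0.05, all higher in REST cKO, against 6.91% of all genes, and limma called 0. Averaged over the 4 times, all 6 astrocyte and all 7 neuron genes were higher in REST cKO, as were 62.7% of all genes. Neither list had a gene called by limma (0 of 6 and 0 of 7), and 3 astrocyte genes and 1 neuron gene had an unadjusted p under 0.05, against 8.53% of all genes. These values do not say which cells the Fgfr3 and Ntrk2 reads came from.

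Fgfr1, the main FGF receptor of neurons, ranged widely inside groups. It read 0.52, 2.32, -1.28 and 1.42 in WT sham, -0.65, 2.06 and 1.16 at day 1, 2.73, 1.59 and 0.60 at day 3, and 2.21, -0.15 and -1.19 at day 7. In REST cKO it read 1.54, 2.54 and 1.06 in sham, 1.47 and 1.04 at day 1, -2.98, 2.32, 2.16 and 2.45 at day 3, and 2.48, -1.22 and 0.18 at day 7. The groups overlapped, and REST cKO day 3 replicate 9 lay far below the rest of its group. The averaged Fgfr1 genotype difference was 0.44, with -1.38 in batch 1 (without day 1), 0.85 in batch 2 and 1.85 at day 3 in batch 3. With 1 library left out it ran from 0.15 (REST cKO day 7 replicate 2) to 0.75 (REST cKO day 3 replicate 9). Fgfr2, another receptor of the family, ran from -1.0 to 2.62, and Fgfrl1, a relative without the kinase domain, from -3.86 to 1.79. Fgfrl1 read -3.86, -0.61 and -1.50 in WT day 7 and 1.79, 1.72 and 0.11 in REST cKO day 7. These day 7 groups did not overlap, and the fitted difference was 3.31 (SE 1.23; limma adjusted p = 0.346), with 4.03 and 3.22 within batches 1 and 2, and 2.03 without WT day 7 replicates 4 and 12.

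Igf1r, the receptor through which IGF1 supports outgrowth of corticospinal axons, stood at 1.33, 2.39, 1.86 and 1.52 in WT sham, 1.35, 2.38 and 2.05 at day 1, 1.53, 1.77 and 1.68 at day 3, and 1.62, 1.81 and 1.15 at day 7. In REST cKO libraries it stood at 1.66, 1.46 and 2.62 in sham, 2.55 and 2.27 at day 1, 2.46, 1.32, 2.29 and 2.01 at day 3, and 2.29, 2.47 and 2.64 at day 7. At day 7 the genotypes did not overlap, with all REST cKO libraries above the WT ones, while in sham and at days 1 and 3 they overlapped. Means at day 7 were 1.53 (SD 0.34, n = 3) in WT and 2.47 (SD 0.18, n = 3) in REST cKO, a fitted difference of 1.00 (SE 0.42; limma adjusted p = 0.415), with 0.58 and 1.32 within batches 1 and 2. Without WT day 7 replicates 4 and 12 it was 0.65. Averaged over the 4 times the Igf1r difference was 0.47 (SE 0.21; limma adjusted p = 0.560), with 0.43 in batch 1 (without day 1), 0.41 in batch 2 and 0.33 at day 3 in batch 3. Igf1r lies at chr7:67952827-68233668 (plus strand). Insr, the insulin receptor, ran from -3.08 to 2.21, and Igf2r, which takes IGF2 up for breakdown, from -2.45 to 3.65.

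Met, the receptor of HGF, was high in WT day 3. It read 1.47, -3.05, -1.24 and -2.02 in WT sham, 0.48, -3.55 and -1.91 at day 1, 2.05, 1.85 and 1.42 at day 3, and -0.94, -3.40 and -2.35 at day 7. Its REST cKO values were -3.48, -1.77 and -1.45 in sham, -0.45 and -1.33 at day 1, -0.79, -1.05, -0.74 and -0.74 at day 3, and -1.16, -2.68 and -0.74 at day 7. The 3 WT day 3 libraries were thus above every REST cKO library and above all other WT libraries save WT sham replicate 3, which lay among them. The means were -1.21 (SD 1.93, n = 4) in WT sham, 1.77 (SD 0.32, n = 3) in WT day 3 and -0.83 (SD 0.15, n = 4) in REST cKO day 3. The fitted difference of WT day 3 from WT sham was 3.17 (SE 1.19; limma adjusted p = 0.629), with 2.84 and 3.48 within batches 1 and 2, and that of REST cKO from WT at day 3 was -2.78 (SE 1.14; limma adjusted p = 0.758), with -2.84, -2.75 and -2.15 within the 3 batches. The authors regressed 2 components of the sequencing metrics out of the values, and Met (0.163) and Igfbp4 (0.0420) were the members that still correlated with a component. Rest did so too (0.326), as part of 140 of 9931 genes, while for the remaining genes the correlation was at most 3.94e-10. Hgf, the ligand of Met, ran from -3.66 to 1.66.

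Erbb4, the neuregulin receptor best known from inhibitory interneurons, was uneven. It read -0.41, -0.72, -0.69 and -1.48 in WT sham, 1.40, -0.82 and -3.82 at day 1, -2.97, -0.72 and -2.36 at day 3, and -2.76, -3.03 and 2.49 at day 7. In REST cKO it read 1.85, 0.22 and -2.43 in sham, -0.69 and -2.62 at day 1, -2.81, -0.64, -3.10 and -0.23 at day 3, and -3.21, -3.19 and -0.29 at day 7. The groups overlapped, and in WT day 7 a single library, replicate 12, stood high. The averaged genotype difference of Erbb4 was -0.15, and its sign hung on single libraries: it was 0.78 without WT day 7 replicate 12, 0.21 without WT day 1 replicate 1, 0.09 without REST cKO sham replicate 23 and 0.02 without REST cKO day 7 replicate 2. Egfr, the EGF receptor, ran from -3.77 to 0.45.

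Pdgfrb and Pdgfrl, which is counted here with the receptors, differed from each other. Pdgfrb, the receptor that marks pericytes, ran from 0.35 to 3.39, with an averaged genotype difference of 0.42 (SE 0.34). Pdgfrl, a related protein, read 0.42, -0.17, -0.51 and -0.23 in WT sham, 1.10, 2.09 and 0.76 in WT day 3, and -3.03, -2.23 and -1.78 in REST cKO sham. These 3 groups did not overlap: WT day 3 was above WT sham, and REST cKO sham below it. Its averaged genotype difference was -1.14 (SE 0.55; limma adjusted p = 0.582), the most negative of the 42.

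Of the 4 binding proteins, which hold IGFs outside the cell, Igfbp7 was the one with a p under 0.01. It read 2.35, 2.40, 2.17 and 2.53 in WT sham, 2.87, 2.19 and 2.49 at day 1, 2.48, 3.12 and 2.26 at day 3, and 2.59, 2.67 and 2.44 at day 7. In REST cKO it read 3.02, 2.31 and 3.00 in sham, 3.39 and 3.01 at day 1, 2.77, 2.46, 3.02 and 2.54 at day 3, and 3.11, 2.34 and 2.15 at day 7. At day 1 both REST cKO libraries lay above the 3 WT libraries, and at the other times the genotypes overlapped. Means at day 1 were 2.52 (SD 0.34, n = 3) in WT and 3.20 (SD 0.27, n = 2) in REST cKO, and the fitted difference was 0.99 (SE 0.35; limma adjusted p = 0.999), with 0.89 within batch 2. In sham it was 0.72 (SE 0.30; limma adjusted p = 0.630), or 0.42 with no components in the model, with 0.65 and -0.04 within batches 1 and 2. The averaged Igfbp7 difference was 0.37 (SE 0.14; limma adjusted p = 0.525), with 0.47 in batch 1 (without day 1), 0.09 in batch 2 and 0.28 at day 3 in batch 3. Igfbp3, another carrier of IGFs, read -0.83, -0.33, -3.04 and -2.78 in WT sham and 1.26, 0.86 and 0.29 in REST cKO sham, with no overlap. Igfbp4 ran from 0.03 to 2.49 and Igfbp5 from -3.07 to 1.62.

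Vessel markers were read beside these genes. The mural and fibroblast list lay at 0.11 to 0.43 in WT and 0.59 to 1.64 in REST cKO at day 1, the time at which Igfbp7 did not overlap either, and at 0.04 to 0.54 and 0.66 to 1.62 at day 3. In sham (0.11 to 0.64 and 0.57 to 1.48) and at day 7 (0.09 to 1.09 and 0.54 to 2.42) it overlapped. The endothelial list lay at 0.99 to 1.69 in WT sham and 1.95 to 2.78 in REST cKO sham, without overlap. After injury its group means were 2.13 in WT and 2.06 in REST cKO at day 1, 2.38 and 2.45 at day 3, and 2.12 and 2.07 at day 7, so the genotypes stood apart in sham and were close on the later days. In sham 3 of 8 endothelial genes (Esam, Tek and Slco1a4) and 1 of 9 mural and fibroblast genes were higher at an unadjusted p under 0.05, against 6.91% of all genes, and limma called 0. In the averaged comparison all 9 mural and fibroblast and all 8 endothelial genes were higher in REST cKO, while 62.7% of all genes were. Here too limma called 0, and 1 gene of each list had an unadjusted p under 0.05, against 8.53% of all genes. These values do not say which cells the Igfbp7 and Pdgfrb reads came from.

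The remaining 7 genes act inside the cell. Fgf12 and Fgf13 are FGF homologous factors that are not secreted and tune voltage-gated sodium channels. Fgf12 read -1.21, 1.84, 0.96 and 0.40 in WT sham and -2.39, -1.60 and -1.78 in WT day 3, which lay wholly below, and 1.88, -0.66 and 2.91 in REST cKO sham against -3.12, -1.85, -1.59 and 0.48 in REST cKO day 3, which overlapped. Averaged over the days and both genotypes, injured less sham was -1.67 (SE 0.68; limma adjusted p = 0.774) for Fgf12. The other 5 are neither factors nor receptors: Igf2bp1, Igf2bp2 and Igf2bp3 bind RNA, the messenger of Igf2 included, Fgfr1op is a centrosomal protein, and Fgfr1op2 was named as a fusion partner of Fgfr1.

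Fgfr1op had the largest contrasts of these. It read -0.33, 1.23, -0.22 and 0.35 in WT sham, 0.50, 1.66 and -1.27 at day 1, -2.67, -2.47 and 1.82 at day 3, and 1.97, 0.21 and 1.94 at day 7. In REST cKO it read -3.69, -1.52 and -1.31 in sham, 0.79 and 2.41 at day 1, 0.08, -0.24, 2.10 and -0.44 at day 3, and 2.50, 1.47 and 0.81 at day 7. REST cKO sham was below WT sham and below all REST cKO libraries after injury, with no overlap. Fitted differences were -3.75 (SE 1.14; limma adjusted p = 0.489) between the genotypes in sham, 3.67 (SE 1.09; limma adjusted p = 0.759) for REST cKO day 3 against sham and 4.80 (SE 1.13; limma adjusted p = 0.288) for REST cKO day 7 against sham. Within batches 1, 2 and 3 the day 7 difference was 6.19, 2.99 and 2.12 and the day 3 difference 3.77, 2.45 and 0.87, and in sham the genotypes differed by -4.14 and -1.58 within batches 1 and 2. The genotype difference at day 3 was 2.46 (limma adjusted p = 0.780), but 1.61 without WT day 3 replicate 5 and 3.73 without replicate 22. Within batch 3 it was reversed, at -2.26, whereas in batches 1 and 2 the REST cKO day 3 libraries lay above the WT library of their batch. The interaction was 6.21 at day 3 (SE 1.73; limma adjusted p = 0.883) and 4.30 at day 7 (SE 1.60; limma adjusted p = 0.651). With no components in the model the Fgfr1op values were smaller. The genotype difference was -2.43 in sham and 1.48 at day 3, and the interaction was 3.91 at day 3 and 2.65 at day 7.

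**Figure D2:**
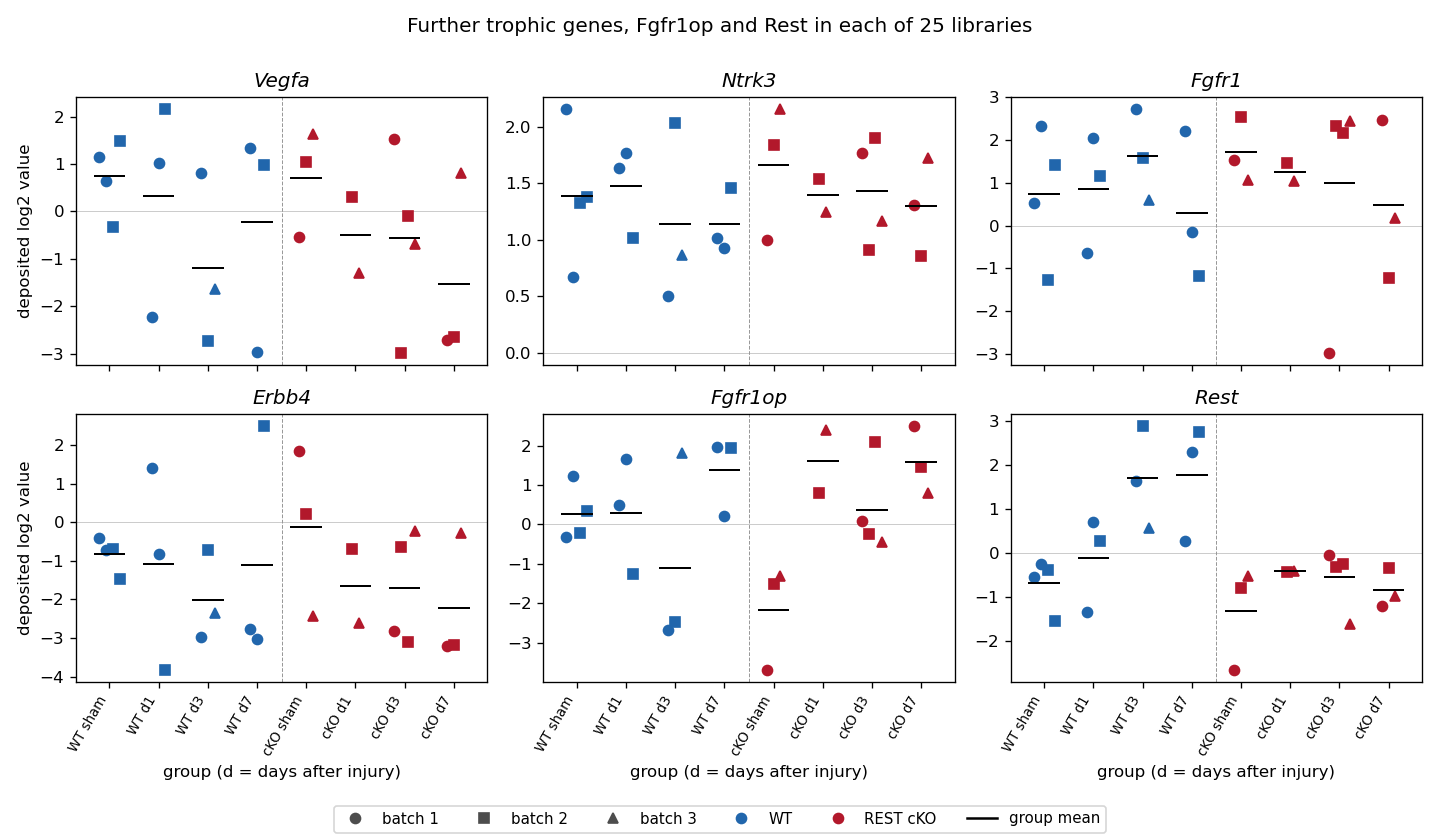
Deposited log2 value (vertical axis) of Vegfa, Ntrk3, Fgfr1, Erbb4, Fgfr1op and Rest in each of 25 libraries, by group (horizontal axis), with marker shape for batch and a bar for each group mean. Fgfr1op is lowest in REST cKO sham (mean -2.17), and Rest is highest in WT days 3 and 7 (means 1.69 and 1.77).

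Injury in WT mice asks how the sorted cells, with Rest intact, answer the lesion, and its comparisons share the 4 WT sham libraries. At day 1 the vessel ligand Pdgfb was lower (1.62, 0.07 and 0.46 against 0.85, 1.44, 3.01 and 1.87; log2 fold change -1.28; limma adjusted p = 0.737) with groups that overlapped, and Igf2r was higher with none (1.53, 1.40 and 1.79 against 0.69, 0.77, 0.34 and 0.73). With limma 0 of the 42 passed, against 0% of all genes, and 1 had an unadjusted p under 0.05, against 6.43% of all genes. Only Igf2r had libraries that did not overlap, 1 of 42 against 7.02%. The fit gave 23 trophic genes a higher and 19 a lower level, with a median of 0.05 against 0.12 for all genes, and quantile normalization turned this to 18 and 24, with -0.11 against -0.02.

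At day 3 in WT, the fit put Vegfb and Fgfr1op lower than sham and Met and Insr higher. Fgfr1op was at -2.54 (limma adjusted p = 0.659), or -1.36 with no components and -1.74 without WT day 3 replicate 5, and it overlapped sham, as replicate 22 (1.82) lay above every WT sham library. Insr read 1.63, 0.44 and 2.21 against 1.08, -3.08, 0.29 and -0.58 in sham, overlapping, with a fitted difference of 2.46 (limma adjusted p = 0.655) that was 1.37 without WT sham replicate 10. By limma 0 of the 42 were called, against 0.0101% of all genes (1 gene), and 4 had an unadjusted p under 0.05, 2 in each direction, against 6.90% of all genes. Libraries did not overlap for 2 of the 42, Pdgfrl (higher) and Fgf12 (lower), against 6.54%. The counts were 19 higher and 23 lower, median -0.08 against 0.01 for all genes, and quantile normalization gave 21 and 21.

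At day 7 in WT, Egf was lower and Fgfr3 higher, and Ntf5 was slightly lower in every library (0.95, 1.25 and 1.23 against 1.56, 1.39, 1.45 and 1.44). For Fgfr3 the fitted difference was 2.28 (limma adjusted p = 0.663), and of the astrocyte markers Gja1 (1.72; limma adjusted p = 0.364) and Slc1a3 (0.66) were higher too and S100b (-2.58) lower. Those were the astrocyte markers with an unadjusted limma p under 0.05, and the level of the whole astrocyte list overlapped sham (0.56 to 1.87 against 0.84 to 1.07). None of the 42 was called by limma, 0 against 0% of all genes, and 2 had an unadjusted p under 0.05, against 6.89%. Ntf5 was the 1 gene of 42 whose libraries did not overlap, against 6.87%. A lower level was fitted for 23 and a higher for 19, median -0.11 against -0.12 for all genes, and quantile normalization turned this to 26 higher and 16 lower, median 0.28.

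Injury in REST cKO mice was fitted at days 3 and 7 against the 3 REST cKO sham libraries, which the comparisons share. At day 3 Fgfr1op and Met lay above sham in every library, as did Igfbp4 (1.50, 1.05, 1.37 and 1.57 against 0.26, 1.02 and 0.64). Fgf12 was lower, with a fitted difference of -3.17 (limma adjusted p = 0.947), and so was Igf2r (1.49, -0.05, 0.64 and 0.16 against 1.43, 2.01 and 3.65; -2.10; limma adjusted p = 0.999), both with groups that overlapped. The Igf2r difference was -3.69 without REST cKO sham replicate 6, -1.48 without REST cKO sham replicate 23 and -1.38 with a term for sex. The list of neuron markers was lower than sham as well, without overlap (1.01 to 1.49 against 1.87 to 2.48). By limma 0 of the 42 passed, against 0.0201% of all genes (2 genes), and 3 had an unadjusted p under 0.05, against 4.65%. Groups did not overlap for 3 of the 42, Met, Igfbp4 and Fgfr1op, against 6.69%. There were 21 higher and 21 lower, and 20 and 22 after quantile normalization.

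At day 7 in REST cKO, Fgfr1op, Pdgfrl and Insr lay above sham in every library. Pdgfrl read -0.20, 0.15 and 0.85 against -3.03, -2.23 and -1.78 (2.68; limma adjusted p = 0.843), and Insr 1.55, 1.51 and 0.87 against -0.24, -0.68 and -0.17. Fgf12 (-3.00; limma adjusted p = 0.859) and Igf2r (-2.32; limma adjusted p = 0.862) were again lower. Igf2r was at -3.74 without REST cKO sham replicate 6 and at -1.66 without REST cKO sham replicate 23. The list of neuron markers was again lower than sham too, without overlap (1.19 to 1.58 against 1.87 to 2.48). Limma called 0 of the 42, against 0% of all genes, and 4 had an unadjusted p under 0.05, against 5.67%. Those 3 without overlap compare with 10.7% of all genes. The counts were 19 higher and 23 lower, median -0.09 against 0.07, and 12 and 30 after quantile normalization, median -0.25.

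Genotype in sham compares the REST cKO and WT libraries without injury. Fgfr3, Igfbp3 and Igf2r, the last at 1.43, 2.01 and 3.65 against 0.69, 0.77, 0.34 and 0.73, were higher in every REST cKO library than in every WT library, and Pdgfrl, Fgfr1op and Ntf5 (0.99, 1.36 and 1.36 against 1.56, 1.39, 1.45 and 1.44) were lower. Those 6 of 42 without overlap compare with 7.86% of all genes. By limma 0 of the 42 were called, against 0.0302% of all genes (3 genes), and 4 had an unadjusted p under 0.05, 2 higher and 2 lower, against 6.91%. The fit gave 23 higher and 19 lower, median 0.20 against 0.04 for all genes, and the same counts after quantile normalization, median 0.21, and with a term for batch, median 0.06. The median rose to 0.45 without REST cKO sham replicate 6, 0.42 without replicate 23, 0.40 without WT sham replicate 10 and 0.36 without replicate 14.

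At day 1 the genotype comparison had 2 REST cKO libraries. Igfbp7 was higher in both, and the growth factor Igf2 was higher in the fit (0.93 and 0.65 against 1.19, -3.04 and -0.96; 2.77; limma adjusted p = 0.999) with overlap. The Igf2 difference was 1.24 without WT day 1 replicate 8 and 1.72 with no components. Limma called 0 of the 42, against 0% of all genes, and 2 had an unadjusted p under 0.05, against 3.81%. Without overlap were 6 of the 42, Fgf10, Fgf12, Hgf, Igfbp7 and Fgfr1op2 higher and Igf2r lower, against 18.6% of all genes. The counts were 24 higher and 18 lower, median 0.31 against 0.19, and 23 and 19 after quantile normalization, median 0.13.

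At day 3 Vegfb, Ntrk2 and Mdk lay higher in every REST cKO library than in every WT library, and Met and Pdgfrl lower. Pdgfrl read -3.00, -0.12, -0.12 and -0.07 in REST cKO against 1.10, 2.09 and 0.76 in WT. Igfbp3 was higher in the fit (1.62, -0.64, -0.38 and 2.22 against -2.94, -0.27 and -2.36; 2.51; limma adjusted p = 0.780), with overlap. By limma 0 of the 42 were called, against 0% of all genes, and 5 had an unadjusted p under 0.05, 4 higher and 1 lower, against 6.37%. The 5 without overlap compare with 7.59% of all genes. In the fit 26 were higher and 16 lower, median 0.15 against 0.05, and 22 and 20 after quantile normalization, median 0.10. Without WT day 3 replicate 5, the library with the most low values, the median was -0.06, without replicate 16 it was 0.51 and without REST cKO day 3 replicate 9 it was 0.27.

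At day 7 Igf1r and Fgfrl1 lay higher in every REST cKO library, as did the list of excitatory neuron markers. Limma called 0 of the 42, against 0% of all genes, and these 2 had an unadjusted p under 0.05, against 9.95% of all genes. The same 2 were without overlap, against 12.4%. The paper, from its own limma fit at an FDR under 0.1, reports genes up and down at this time, and that fit was not rerun here. The present fit gave 28 higher and 14 lower, median 0.14 against 0.23 for all genes. Quantile normalization turned this to 13 higher and 29 lower (median -0.21) and a term for sex to 16 and 26 (median -0.17), whereas it was 27 and 15 with no components, 26 and 16 with a term for batch, 24 and 18 with library weights and 15 and 9 among genes with a mean of at least 0. The median was -0.13 without WT day 7 replicate 7, -0.02 without REST cKO day 7 replicate 2, 0.29 without WT day 7 replicate 12 and 0.22 without REST cKO day 7 replicate 26. Without WT day 7 replicates 4 and 12 the median was 0.57.

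Averaged over sham and the 3 days, the receptors Fgfr3, Ntrk2 and Igf1r and the binding protein Igfbp7 were higher in REST cKO and Pdgfrl was lower, each with a 95% interval that left out 0. Of the receptors 12 were higher and 3 lower (median 0.44), of the ligands 10 and 6 (median 0.16), of the binding proteins 3 and 1 (median 0.55), and of the intracellular genes 5 and 2 (median 0.52). Pdgfrl, related to the PDGF receptors, is counted among the 3 lower receptors. In all 30 of the 42 were higher and 12 lower, median 0.39, while 62.7% of all genes were higher, median 0.14. By limma 0 of the 42 were called, against 0.0101% of all genes (1 gene), and 5 had an unadjusted p under 0.05, against 8.53%. Quantile normalization moved the median of all genes to -0.00 and gave 26 trophic genes higher and 16 lower, median 0.15, and leaving out 1 of 23 libraries in turn (not the 2 of REST cKO day 1) gave between 26 and 33 higher. The median was smaller with a term for sex (0.19) and without WT day 3 replicate 5 (0.23), REST cKO day 7 replicate 2 (0.24) or WT day 1 replicate 8 (0.26). The 95% intervals reached a median of 1.08 log2 units to each side. Replicates are separate labelled libraries, and the p-values measure the spread between these, part of which may be technical.

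**Figure D3:**
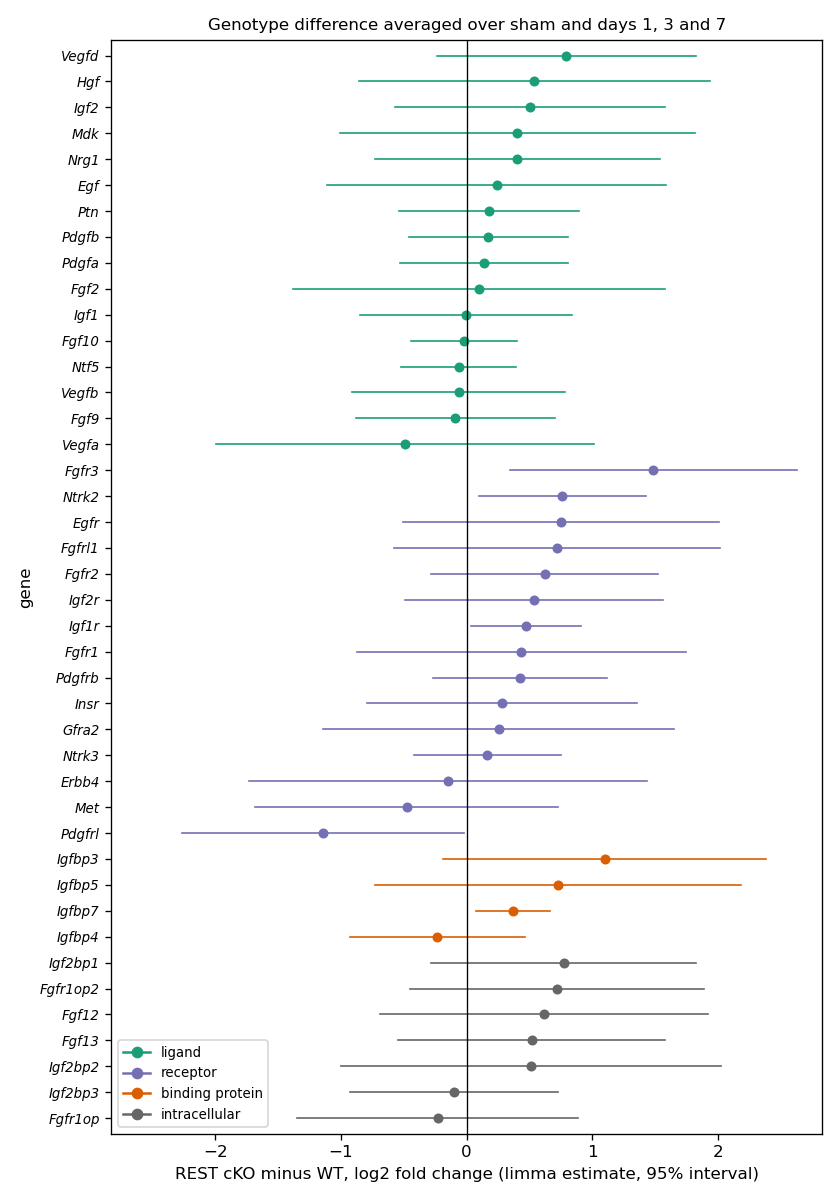
Fitted log2 fold change of REST cKO less WT, averaged over sham and days 1, 3 and 7 (horizontal axis), for each of the 42 genes (vertical axis), coloured by role, with 95% intervals. Points lie above 0 for 30 genes (26 after quantile normalization), and 5 intervals leave out 0, those of Fgfr3, Ntrk2, Igf1r, Igfbp7 and Pdgfrl.

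Averaged over both genotypes and the 3 days, the fit put Fgf12 and Vegfb lower after injury than in sham (-1.67 and -0.92) and Fgfr1op higher (1.83, SE 0.58; limma adjusted p = 0.627). For Vegfb the limma adjusted p was 0.826. Single groups did not all follow: mean Vegfb was 1.90 in WT day 7 against 1.72 in WT sham, and 1.72 in REST cKO day 3 against 1.68 in REST cKO sham. Mean Fgfr1op was -1.11 in WT day 3 and 0.30 in WT day 1 against 0.26 in WT sham, and mean Fgf12 was 1.36 in REST cKO day 1 against 1.38 in REST cKO sham. Of the ligands 7 were higher and 9 lower, of the receptors 8 and 7, of the binding proteins 2 and 2, and of the intracellular genes 3 and 4. In all 20 were higher and 22 lower, median -0.03 against 0.06 for all genes, and 18 and 24 after quantile normalization. By limma 0 of the 42 were called, against 0.0201% of all genes (2 genes), and 3 had an unadjusted p under 0.05, against 5.97%. With 1 library left out the median of the 42 took either sign in this comparison and in each of the 5 comparisons with sham, so no shared direction is read from them.

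Whether injury acted differently in the genotypes was tested by the interactions. At day 7 Egf (4.06; limma adjusted p = 0.782) and Fgfr1op were higher and Fgfr3 lower in the REST cKO response less the WT response. Limma called 0 of the 42, against 0.0201% of all genes (2 genes), and 3 had an unadjusted p under 0.05, against 6.35%; 21 were higher and 21 lower, and 13 and 29 after quantile normalization. At day 3 Vegfb and Fgfr1op were higher, 0 of the 42 were called by limma against 0% of all genes, and 2 had an unadjusted p under 0.05, against 5.15%, with 19 higher and 23 lower, and 17 and 25 after quantile normalization. Across all 8 groups at once, Vegfb had the lowest adjusted p of the 42 (0.355 by limma), 0 were called against 0.0101% of all genes (1 gene), and 4 had an unadjusted p under 0.05, Vegfb, Fgfr1op, Met and Fgf12, against 8.50%.

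The wider pathway was read through 97 further genes, of which 66 were measured: 18 of 26 other receptors and co-receptors, 8 of 16 other ligands, 27 of 37 adaptors and proximal enzymes, and 13 of 18 feedback inhibitors. For the averaged genotype difference 45 were higher and 21 lower, while 62.7% of all genes were higher. Of the 66 limma called 0, and 4 higher and 2 lower had an unadjusted p under 0.05, close to the 8.53% of all genes. Kitl, the ligand of the receptor Kit, had the lowest of these p-values, with a difference of 0.95 (SE 0.32; limma adjusted p = 0.477). Of the adaptors, Gab1 was at 1.71 (limma adjusted p = 0.543) and Gab2 at -0.66 (limma adjusted p = 0.506), and Kdr, the chief VEGF receptor of vessels, was at 0.64 (limma adjusted p = 0.571). Among the other receptors and co-receptors, Ncam1 was at 0.90 (limma adjusted p = 0.583) and Nrp1 at -0.34 (limma adjusted p = 0.584). For averaged injury 35 were higher and 31 lower, while 55.3% of all genes were higher. Limma called 0, and 2 in each direction had an unadjusted p under 0.05, against 5.97% of all genes. The adaptor Sh2b3 had the lowest of these p-values, at -0.63 (limma adjusted p = 0.711), and Flt1 was at 0.34 (limma adjusted p = 0.824). Cbl, which marks active receptors for breakdown, was at 0.45 (limma adjusted p = 0.724), and Dusp6, a phosphatase that turns off MAP kinase, at -0.55 (limma adjusted p = 0.802).

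In the genome the 42 genes lie on 17 chromosomes, with Fgf13 and Vegfd on the X. For 12 of the 42 another annotated gene lies on the same strand within their span, and reads from it could be counted with them. RefSeq promoter windows of 300 bases (GRCm38) were at hand for 30 of the 42, 45 windows in all. TTCAGCACC and GGACAGCGC, the left and right parts of the sequence REST is known to bind, were searched on both strands. They occurred in 0 of the 45 windows, against 0.371% and 0.405% of all 32851 windows, and this says only that these letters are not in these windows.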

How the data were processed

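The authors aligned the 3′ reads with STAR to mm10, counted transcripts with Salmon and tximport, scaled libraries with DESeq2, removed batch effects with RUV, regressed 2 components of the sequencing metrics out and deposited log2 normalized counts. These values of 9931 genes with a symbol (24 entries without one were left out) in 25 libraries were used as deposited; the fold changes and p-values in the same table were not used, and 0 value columns were without a sample. A limma fit (3.58.1, R 4.3.3) gave each of the 8 groups a mean, with the 2 components from the labels as terms, 15 residual degrees of freedom and a mean-variance trend, and p-values were adjusted by Benjamini-Hochberg over all genes. The fit was checked on simulated data. Tables and plots were made with Python 3.11.15, numpy 2.4.6, pandas 2.3.3 and matplotlib 3.10.9. Values in every library were given for members past the threshold or with an unadjusted p under 0.01 in any comparison, and for Ntrk2, Ntrk3, Igf1r, Fgfr1, Erbb4, Met and Vegfa; other members shown by library were chosen after their values were seen. The lists of cell markers (neuron, excitatory, layer 5 and inhibitory neuron, microglia, astrocyte, oligodendrocyte and its precursor, endothelial, mural and fibroblast) and of pathway genes, like the members, were chosen with earlier results of these data known, and 1 marker is not reported here. Alternatives were to drop the components or the trend, to add batch or sex to the model, to weight the libraries, to normalize by quantiles, to keep only genes whose mean was at least 0, and to leave out 1 library at a time, save the 2 of REST cKO day 1.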

Additional observations from a re-analysis of the deposited data

Results flagged for a closer look

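Groups of 4 libraries were searched for a library far from the others, by its gap to the nearest of them as a share of the range of the group. The 42 members and Rest were searched, and of 86 gene and group pairs 6 passed, where chance gives about 1 in 20. Ntrk2 stood at 3.64 in REST cKO day 3 replicate 15, far above the other libraries of that group. Fgfr1 stood at -2.98 in REST cKO day 3 replicate 9, far below them. Rest stood at -1.61 in REST cKO day 3 replicate 27, also below its group. Pdgfrl stood at -3.00 in REST cKO day 3 replicate 9, far below the others. In WT sham, Igf1 stood at 1.65 in replicate 10 and Igf2 at 1.35 in replicate 14, each far above the rest of the group.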

How the results depend on the processing

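Of the results for the comparisons, 645 values under an alternative counted as the same and 139 as moved. Of those for single members, 900 kept direction and side of the threshold, 2 came to pass it and 8 reversed. No member passed the threshold in the main fit, so keeping its side says little of stability, and values counted as kept could still change in size. Medians of the members counted as moved where they shifted by more than 0.224, the spread between replicates. A median that shifted by less counted as the same even where its sign changed. For WT day 1 it went from 0.05 to -0.11 under quantile normalization. Passing the threshold came only to Vegfb, in both comparisons with WT day 3 without its replicate 22. The cause was not tested for any of these. With no components the genes called were 0 for WT day 3, 5 for WT day 7, 0 for REST cKO day 3, 0 for genotype in sham, 1 for genotype at day 7, 3 for genotype averaged and 0 for the day 7 interaction. A term for batch gave 0 for WT day 3, 1 for REST cKO day 3, 2 for genotype at day 7, 0 for injury averaged, 4 for genotype averaged and 0 for the day 7 interaction. A term for sex gave 2 for WT day 1, 1 for WT day 7, 0 for REST cKO day 3, 6 for genotype in sham, and 0 each for injury averaged, the day 7 interaction and the 8 groups, with member medians of 0.21 for REST cKO day 3 and -0.17 for genotype at day 7 and an averaged Ntrk3 difference of -0.018. Library weights gave 24 for WT day 1, 0 for WT day 3, 6 for REST cKO day 7, 7 for genotype in sham, 5 for injury averaged, 4 for the day 7 interaction and 4 for the 8 groups, and an averaged Erbb4 difference of 0.22. Among genes with a mean of at least 0 there were 1 for REST cKO day 3, 5 for genotype at day 7 and 0 for the day 7 interaction. No trend gave 0 for WT day 3, 2 for WT day 7, 0 for REST cKO day 3, 0 for genotype in sham, 4 for injury averaged, 0 for genotype averaged, 4 for the day 7 interaction and 0 for the 8 groups. Quantile normalization gave 1 for WT day 1, 0 for WT day 3, 9 for genotype in sham, 1 for injury averaged, 1 for the day 7 interaction and 2 for the 8 groups, with member medians of 0.28 for WT day 7, -0.21 for genotype at day 7, 0.15 for genotype averaged, -0.30 for the day 7 interaction and -0.37 for the day 3 interaction.

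A further term and a further left-out pair were chosen after seeing the data. A term for how many values of a library were under -2 gave 1 gene called for WT day 1, 0 for WT day 3, 15 for genotype at day 7, 0 for injury averaged and 3 for genotype averaged, and a member median of -0.29 for the day 3 interaction. Without WT day 7 replicates 4 and 12, which leaves 1 library in that group, assumed to vary like the others, 7 genes were called for WT day 7, 22 for genotype at day 7, and 0 each for injury averaged, genotype averaged and the 8 groups. Member medians were then -0.39 for WT day 7, 0.57 for genotype at day 7 and 0.27 for the day 7 interaction, and the averaged differences of Vegfa and Erbb4 were 0.29 and 0.81.

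With 1 of 23 libraries left out, the genes called ran from 0 to 3 for WT day 1, 0 to 5 for WT day 3, 0 to 7 for WT day 7, 0 to 12 for REST cKO day 3, 0 to 7 for REST cKO day 7, 0 to 13 for genotype in sham, 0 to 3 for genotype at day 3, 0 to 21 for genotype at day 7, 0 to 4 for injury averaged, 1 to 8 for genotype averaged, 0 to 6 for the day 7 interaction and 1 to 6 for the 8 groups. Members called ran from 0 to 1 for WT day 3 and for genotype at day 3. Member medians ran from 0.18 to 0.45 for genotype in sham, -0.061 to 0.51 for genotype at day 3, -0.13 to 0.29 for genotype at day 7, 0.23 to 0.40 for genotype averaged and -0.32 to 0.36 for the day 3 interaction. The averaged Erbb4 difference ran from -0.78 to 0.78 and was reversed at 0.21, 0.78, 0.09 and 0.02. Leaving out either of the 2 REST cKO day 1 libraries was not planned and not run. No paired analysis was possible because the sample numbers in the labels are unique and link no library of a group to a library of another.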
